A study of Mus musculus with 7 samples.

Results

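Genes for the secretory products of the airway club cell and the airway submucosal gland were followed in sinoatrial node RNA. The 10 genes were chosen by name, after earlier results of these data had shown most of them to be higher in one of the libraries. They are 10 of the 15967 rows of the table. The rule sets 4 club cell products (Scgb1a1, Scgb3a1, Scgb3a2 and Cyp2f2) against 6 gland and antimicrobial products (Bpifa1, Bpifb1, Muc5b, Ltf, Lcn2 and Reg3g). Their values in these libraries chose them, so the values are a description and no test was made of them.

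The sinoatrial node is a small area of the right atrial wall where each heartbeat starts, and it holds no airway epithelium of its own. Club cells are dome-shaped secretory cells that line the conducting airways. They release secretoglobins, a family of small secreted proteins, and carry cytochrome P450 enzymes that oxidise inhaled chemicals. Serous and mucous cells of the airway glands release mucins together with proteins that bind iron, bacterial membranes or bacterial walls. Ltf and Lcn2 are also stored in the granules of neutrophils, and Cyp2f2 is also made in liver.

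Poly-A RNA came from nodes (labelled SAN) of Sv129 mice aged 3 weeks. In the control group the genotype was Baf250af/f, floxed alleles of the gene with the symbol Arid1a and no Cre. In the Cre group, labelled 6 days after tamoxifen, it was Baf250af/f;Hcn4CreERT2, so both groups carried the floxed alleles. Hcn4CreERT2 is a recombinase placed under the Hcn4 gene of pacemaker cells that needs tamoxifen to act, so deletion would be limited to cells that use Hcn4. There was 1 library per genotype, the number of mice behind each is not stated, and whether the controls had tamoxifen is not stated either. The earlier time course (a control, then 16, 20, 24 and 48 h) was not analysed here. With 1 library on each side, the comparison has no replicate check.

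Values are FPKM (fragments scaled to transcript length and to the mapped fragments of the library), so levels can be compared between genes. A log2 ratio here is that of FPKM + 1 with Cre to FPKM + 1 in the control, which understates the difference of weak genes. All genes together had 497407 FPKM in the control and 485189 with Cre. The read depth is unknown. Arid1a had 34.9 FPKM in the control and 12.3 in the Cre library, a value that can include exons outside the floxed part. The pacemaker channel gene Hcn4 had 0.605 and 0.719 FPKM, weak in both. Of 13 measured sinoatrial node genes 3 were at least 2-fold higher with Cre and 0 lower, and the list of 16 summed to 99.0 and 199 FPKM, with Popdc2 at 43.8 and 111 FPKM. Atrial muscle genes were abundant, with sums of 17254 and 23331 FPKM and 3 of 13 higher, among them Ryr2 at 18.0 and 67.0 FPKM. The libraries stood apart in genes of the thymus and in sex-linked genes. The 20 thymocyte and T cell genes summed to 3663 FPKM in the control against 18.2 FPKM with Cre. Xist had 0.379 and 93.2 FPKM and the Y-linked gene Eif2s3y had 85.8 and 0.118 FPKM. Genotype, sex, Cre and dissection cannot be told apart in this pair, nor can more cells of a type be told from more RNA per cell.

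The 250 bases before the start site are shown for the genes with the highest ratios among those with an entry, Bpifa1, Scgb3a1 and Ltf, and for the gene with the lowest, Lcn2. They come from RefSeq on GRCm38.p6, and windows of 7 of the 10 genes were analysed. That number counts the windows used here and not what RefSeq holds. Each runs 5′ to 3′ on the gene's strand and ends at the base before the start site. Capitals mark matches, on either strand, to letters bound by factors of airway secretory cells: TTNNGNAA for C/EBP, TGTTTNC for FOXA and CTCAAG for NKX2-1.
Bpifa1, chr2:154142630-154142879, plus strand: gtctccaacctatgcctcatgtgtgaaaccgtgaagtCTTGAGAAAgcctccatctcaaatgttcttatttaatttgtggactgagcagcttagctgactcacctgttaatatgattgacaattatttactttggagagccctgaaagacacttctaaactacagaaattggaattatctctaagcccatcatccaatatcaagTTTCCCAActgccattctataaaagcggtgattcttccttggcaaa
Scgb3a1, chr11:49663345-49663594, plus strand: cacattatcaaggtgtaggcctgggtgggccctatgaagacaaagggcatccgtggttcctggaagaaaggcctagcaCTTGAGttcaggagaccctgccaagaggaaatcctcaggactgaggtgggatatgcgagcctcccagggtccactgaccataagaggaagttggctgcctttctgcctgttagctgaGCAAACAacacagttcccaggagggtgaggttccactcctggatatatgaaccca
Ltf, chr9:111019042-111019291, plus strand: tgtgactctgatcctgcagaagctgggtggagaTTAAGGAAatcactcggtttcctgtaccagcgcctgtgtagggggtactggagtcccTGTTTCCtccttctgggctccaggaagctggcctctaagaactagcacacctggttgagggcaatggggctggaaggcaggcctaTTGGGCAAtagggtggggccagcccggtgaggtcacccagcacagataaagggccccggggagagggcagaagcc
Lcn2, chr2:32387740-32387989, minus strand: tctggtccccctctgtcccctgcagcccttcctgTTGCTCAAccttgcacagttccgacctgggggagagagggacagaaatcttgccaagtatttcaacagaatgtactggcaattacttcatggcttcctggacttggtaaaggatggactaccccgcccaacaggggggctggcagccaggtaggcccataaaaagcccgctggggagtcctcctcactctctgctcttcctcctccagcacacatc

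Counting back from the start site, Bpifa1 had C/EBP letters from -212 to -205 and from -46 to -39. The first of these overlaps a match to the NKX2-1 letters from -213 to -208. Scgb3a1 had the NKX2-1 letters from -172 to -167 and the FOXA letters from -55 to -49. Ltf had C/EBP letters from -217 to -210 and from -75 to -68, with FOXA letters from -160 to -154. Lcn2 had C/EBP letters from -216 to -209, and it was the only one of the 4 windows shown with neither of the other motifs. Among the other windows, 1 of the 2 for Bpifb1 had FOXA letters from -43 to -37, and Reg3g had NKX2-1 letters from -39 to -34. The Cyp2f2 window held none of these letters, so no motif was shared by all 7 genes. Of all 32851 windows of this length, 36.8% held the C/EBP letters, 17.8% the FOXA letters and 13.3% the NKX2-1 letters, so a match is a description of the sequence and not a site.

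The club cell genes were among the most abundant transcripts of both libraries. Scgb1a1 (mm9 chromosome 19, 9158131 to 9162446), the main secreted protein of club cells, had 3261 FPKM in the control against 12533 FPKM with Cre. It was the most abundant gene of the Cre library and ranked 5 in the control, among the 13408 measured genes, those whose mean reached 1 FPKM. Its log2 ratio was 1.94, a fold of 3.84.

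Scgb3a1 (chromosome 11, 49477111 to 49478620), a secretoglobin of the larger airways, had 580.1 FPKM in the control against 3804 FPKM with Cre. It ranked 134 by level in the control and 7 in the Cre library, and its log2 ratio of 2.71 was the highest of the club cell genes. Scgb3a2 (chromosome 18, 43923980 to 43927053), a secretoglobin of club cells and their precursors, had 267 and 1309.9 FPKM, a log2 ratio of 2.29. Cyp2f2 (chromosome 7, 27904973 to 27918679), the P450 enzyme that activates naphthalene in club cells, had 188 and 719 FPKM, a log2 ratio of 1.93. The order of the 4 levels was the same in both libraries, Scgb1a1 above Scgb3a1, Scgb3a2 and Cyp2f2.

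The gland genes spanned a wider range of levels and of ratios. Bpifa1 (chromosome 2, 153968615 to 153974953), a secreted lipid-binding protein of the upper airway that acts on surface tension and on bacteria, had 62.0 FPKM in the control against 775 FPKM with Cre. Its log2 ratio of 3.62, a fold of 12.5, was the highest of the 10 genes and ranked 3 among all measured genes. Bpifb1 (chromosome 2, 154016553 to 154046079), a larger protein of the same BPI-fold family whose locus starts 41.6 kb beyond the end of Bpifa1, had 68.0 and 295 FPKM, with a log2 ratio of 2.10. These 2 neighbours thus had nearly equal levels in the control and levels that were far apart in the Cre library. Muc5b (chromosome 7, 149024976 to 149058990), the gel-forming mucin of glands and of secretory cells of the surface, had 8.06 and 35.2 FPKM, a log2 ratio of 1.999.

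Among the antimicrobial proteins Ltf (chromosome 9, 110921795 to 110945270), the iron-binding protein lactoferrin, had 34.9 FPKM in the control against 204 FPKM with Cre, a log2 ratio of 2.51. Reg3g (chromosome 6, 78416261 to 78418868), a C-type lectin that binds the walls of Gram-positive bacteria, had 108 and 397 FPKM, a log2 ratio of 1.87. Lcn2 (chromosome 2, 32240156 to 32243259), which captures bacterial siderophores, had 2.23 and 4.34 FPKM, a log2 ratio of 0.73. It was the weakest of the 10 genes in both libraries and lay below the 2-fold rule. Without the added 1 FPKM its fold was 1.95, just under that rule. By size of the ratio Lcn2 ranked 1626 of 13408, while the ranks of the other 9 genes ran from 3 to 90.

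**Figure D1:**
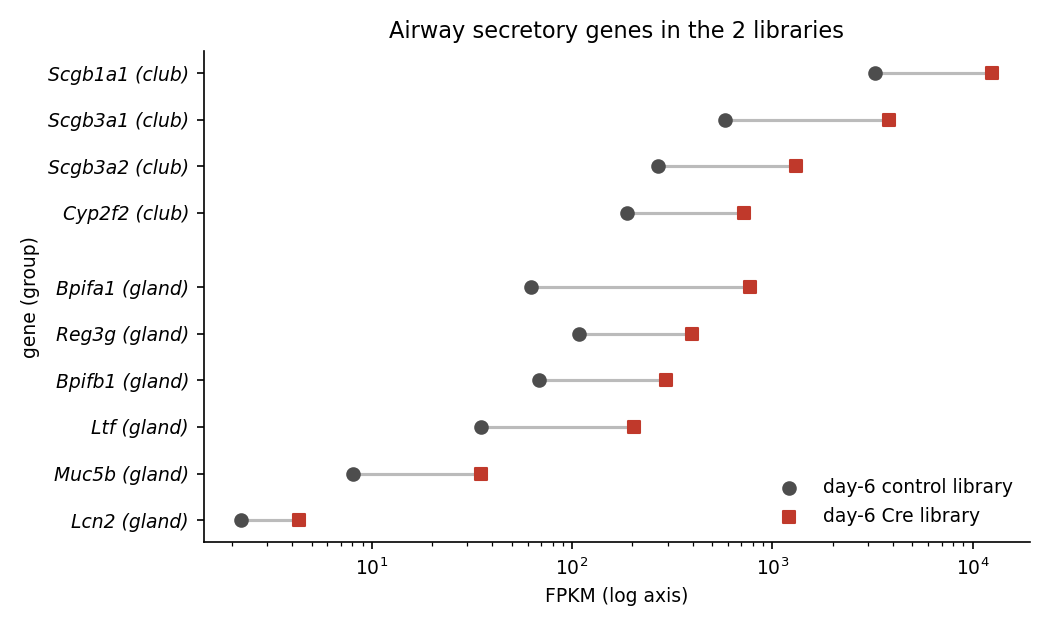
FPKM (log axis) of the 10 genes in the control library (grey circles) and the Cre library (red squares), 1 library each, with the club cell genes above the gland genes. Every gene is higher in the Cre library, by the longest distance for Bpifa1 (62.0 to 775 FPKM) and the shortest for Lcn2 (2.23 to 4.34 FPKM).

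Of the 10 genes 9 were at least 2-fold higher with Cre on the log2 scale of FPKM + 1 and 0 were lower. Over all 13408 measured genes 6.08% were at least 2-fold higher and 10.4% lower, with a median log2 ratio of -0.07. Since the genes were picked with these values in view, nothing is read from the difference between those shares. When the libraries were scaled to equal upper quartiles the median of all genes became 0.14, a shift of the scale under which the same count of 9 was higher. In the authors' deposited table Bpifa1 was called, at p = 0.0001 and q = 0.0226 in that table. That call is 1 of the 2 made towards the Cre library, or 0.0125% of 15965 genes, where 0.551% were called lower. The other 9 genes were not called, with q-values in the authors' deposited table between 0.159 for Ltf and 0.999 for Lcn2. Those values compare the 2 libraries and not the genotypes.

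**Figure D2:**
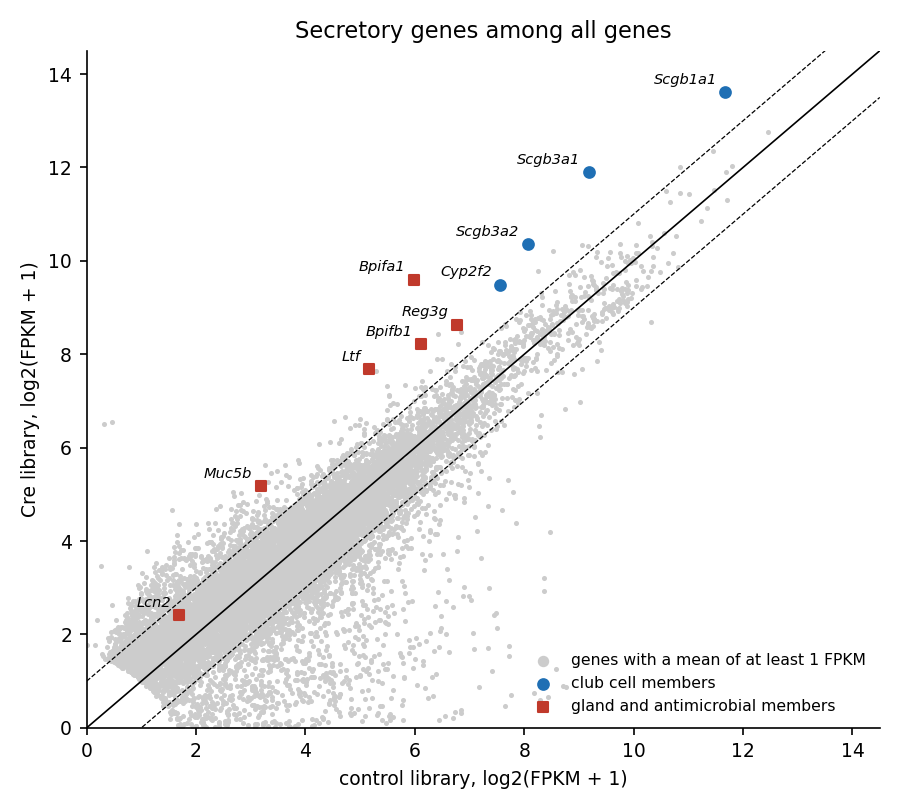
Log2(FPKM + 1) in the control library (x axis) against the Cre library (y axis), with 1 grey point per measured gene, club cell genes as blue circles and gland genes as red squares; the solid line is equality and the dashed lines are 2-fold. The secretory genes other than Lcn2 lie above the upper dashed line from Muc5b (8.06 and 35.2 FPKM) up to Scgb1a1 (3261 and 12533 FPKM).

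Set side by side, the 4 club cell genes had a median log2 ratio of 2.11 (range 1.93 to 2.71) and the 6 gland genes a median of 2.05 (range 0.73 to 3.62). The medians differed by 0.06, and the range of the club cell genes lay inside that of the gland genes. Moving Scgb3a1, which glands also make, to the other group turned the difference to -0.16. In summed FPKM the club cell genes had 4297 in the control and 18366 in the Cre library, a fold of 4.27. The gland genes summed to 283 and 1711 FPKM, a fold of 6.04. Without Bpifa1 the fold of the gland sum was 4.23, so that gene held the gap between the sums.

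Together the 10 genes took 0.921% of the summed FPKM of the control library and 4.14% of that of the Cre library. Scgb1a1 alone took 0.656% and 2.58%. Within the sum of the 10 genes the share of Scgb1a1 was 71.2% in the control and 62.4% in the Cre library, and that of Scgb3a1 was 12.7% and 18.9%. Bpifa1 made up 1.35% and 3.86% of the same sum.

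Levels relative to Scgb1a1 in the same library do not depend on how the libraries were scaled. Cyp2f2 stood at 5.77% of Scgb1a1 in the control and 5.74% in the Cre library, and Reg3g at 3.31% and 3.17%. Bpifb1 stood at 2.08% and 2.35%, and Muc5b at 0.247% and 0.281%. Scgb3a2 stood at 8.20% and 10.5%. Larger differences in proportion were those of Scgb3a1 (17.8% and 30.4%), Ltf (1.07% and 1.63%) and Bpifa1 (1.90% and 6.19%). Lcn2 went the other way, at 0.0683% and 0.0346% of Scgb1a1. The secretory genes were therefore not in 1 fixed ratio to each other in the 2 libraries, and the error of these proportions is unknown without replicates.

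**Figure D3:**
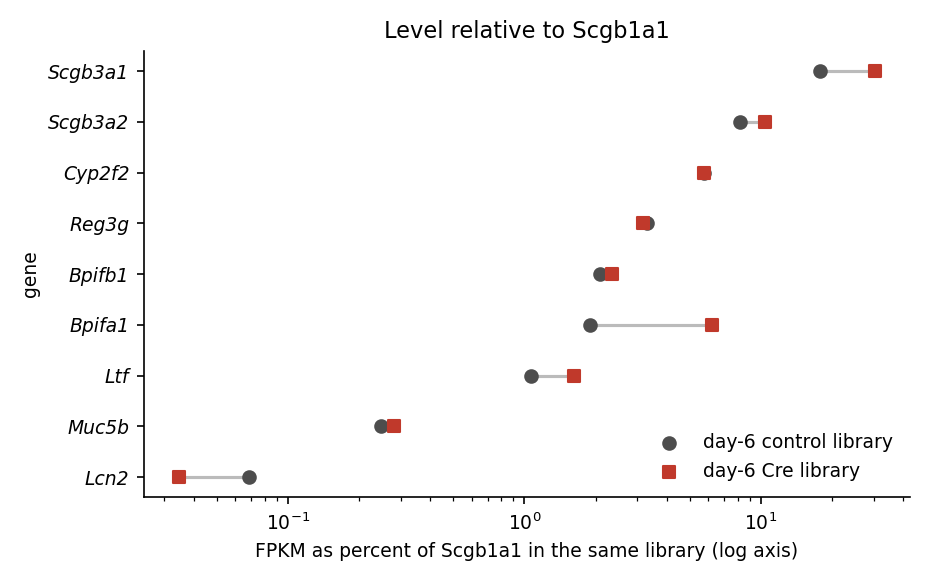
FPKM of 9 genes as a percentage of Scgb1a1 in the same library (log axis), control in grey circles and Cre in red squares, 1 library each. Cyp2f2, Reg3g, Bpifb1 and Muc5b lie close together in the 2 libraries, while Bpifa1 is at 1.90% and 6.19% and Lcn2 at 0.0683% and 0.0346%.

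Relatives of these genes had smaller ratios than the 9 genes that passed the 2-fold rule, though Lbp, Ptgds and Apod passed it too. Scgb1c1, the other secretoglobin with a row, had 1.41 FPKM in the control against 2.56 FPKM with Cre. The BPI-fold genes Bpifb4 and Bpifb5 stayed below 1 FPKM in both libraries, at 0.214 and 0.0564 FPKM for Bpifb4 and 0.144 and 0.301 FPKM for Bpifb5. Lbp, a family member that binds lipopolysaccharide in plasma, had 11.5 and 41.6 FPKM, a log2 ratio of 1.77. The plasma lipid transfer gene Pltp had 47.2 and 38.5 FPKM. Trf, the plasma relative of lactoferrin, had 81.4 and 113 FPKM, a log2 ratio of 0.47 beside 2.51 for Ltf. Among lipocalins 2 of 7 measured genes were at least 2-fold higher, Ptgds at 4.47 and 15.9 FPKM and Apod at 5.84 and 14.8 FPKM. No other Reg gene had a value here.

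Other club cell genes, written from textbook knowledge with earlier results of these data known, were at least 2-fold higher in 15 of 24 measured cases and lower in 0, with a median log2 ratio of 1.36. Cbr2, a carbonyl reductase of lung, had 366 FPKM in the control against 1184 FPKM with Cre. The lipid-binding gene Sec14l3 had 37.9 and 199 FPKM, and Cyp2a5 had 43.8 and 160 FPKM. The summed level of the list was 1692 and 3865 FPKM, a fold of 2.28 beside 4.27 for the 4 club cell genes above. Several genes of that list are also used in other tissues.

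Of 7 measured serous gland genes 5 were higher and 0 lower, with a median of 1.37. Wfdc2, a secreted protease inhibitor-like protein of airway epithelium, had 85.1 and 344 FPKM, and Pigr, which carries antibodies across epithelium, had 5.27 and 20.1 FPKM. Of 23 genes on that list 11 had a row, and 3 of these were below 1 FPKM in both libraries. Goblet and mucous cell genes were higher in 7 of 13 cases and lower in 1, with a median of 1.11. The membrane mucin gene Muc1 had 6.01 and 22.3 FPKM, Tff2 had 4.59 and 16.3 FPKM, and Agr2, which folds mucins, had 5.17 and 17.4 FPKM. The surface mucin gene Muc5ac, named after its values were seen, had 0.349 and 0.924 FPKM, below Muc5b in both libraries.

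Transcription factors of airway epithelium were higher in 10 of 18 measured cases and lower in 0, with a median of 1.07. Foxa1 had 2.66 and 11.9 FPKM, Sox2 had 1.95 and 9.72 FPKM, and Klf5 had 2.41 and 11.4 FPKM. Nkx2-1, a lung and thyroid factor named after its values were seen, had 1.43 and 6.38 FPKM. In the Cre library these 4 factors lay between Lcn2 and Muc5b in level.

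Genes linked to inflammation had a lower median ratio than the secretory genes. The list of induced antimicrobial genes had a median of 0.10, with 1 of 14 measured genes higher and 1 lower. Of its 22 genes with a row 6 were below 1 FPKM in both libraries. The antimicrobial genes Ltf, Lcn2 and Reg3g are counted with the gland genes and not in this list. Pglyrp1, a peptidoglycan-binding protein, was the higher one at 13.8 and 50.1 FPKM, and Il17ra, a receptor chain also made by white blood cells, was the lower one at 22.9 and 3.01 FPKM. Saa3, an acute-phase gene, had 1.91 and 4.49 FPKM.

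Neutrophil markers bear on Ltf and Lcn2, which those cells also hold. They had a median of -0.12, with 3 of 11 measured genes higher and 0 lower, and the list summed to 60.1 FPKM in the control against 88.3 FPKM with Cre. Of 21 neutrophil genes with a row 10 were below 1 FPKM in both libraries and none was listed at 0. The granule genes Camp and Ngp, named after their values were seen, had 0.906 and 1.59 FPKM in the control against 0.423 and 0.719 FPKM with Cre. S100a8 and S100a9, also named afterwards, had 10.9 and 9.23 FPKM in the control against 6.85 and 7.18 FPKM with Cre. The 3 higher genes were Chi3l3 (0.741 and 5.25 FPKM), Hdc (5.23 and 12.6 FPKM) and Lrg1 (17.5 and 37.5 FPKM). Itgam, an integrin chain of myeloid cells, had 5.35 and 10.4 FPKM, a log2 ratio of 0.84. Of the 11 measured genes 5 lay above equal expression, and the part of neutrophils in the values of Ltf and Lcn2 was not tested.

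Lists of other epithelial cells differed among themselves. Ciliated cell genes were at least 2-fold higher in 26 of 29 measured cases and lower in 0, with a median of 1.70 and sums of 381 and 722 FPKM. Of these sums Tubb2c made up 167 and 203 FPKM and Tppp3 149 and 222 FPKM, both named after their values were seen. Foxj1, the master factor of motile cilia, had 5.96 and 26.2 FPKM, which is 0.183% of Scgb1a1 in the control and 0.209% in the Cre library. Alveolar genes were higher in 10 of 22 cases and lower in 1, with a median of 0.63. Sftpc, the surfactant protein of alveolar type II cells, had 0.248 and 90.5 FPKM. That is 0.0076% of Scgb1a1 in the control and 0.722% in the Cre library, a larger difference in proportion than that of any of the 9 genes set against Scgb1a1 above. Of the other surfactant protein genes, Sftpa1 and Sftpd were nearer to a fixed proportion than Sftpb. Sftpa1 had 8.55 and 48.2 FPKM (0.262% and 0.385% of Scgb1a1), Sftpd had 5.23 and 24.6 FPKM (0.160% and 0.196%), and Sftpb had 1.95 and 24.5 FPKM (0.0598% and 0.196%). Sftpd was named after its values were seen. General epithelial genes were higher in 15 of 28 cases and lower in 3, with a median of 1.05, and their summed level was 469 FPKM in the control against 476 FPKM with Cre. The 3 lower genes were the keratins Krt17 (27.0 and 0.799 FPKM), Krt18 (100.5 and 37.3 FPKM) and Krt8 (102 and 50.6 FPKM), the last pair named after their values were seen. Among the higher ones were Cldn3 (7.92 and 30.7 FPKM), a tight junction gene, and Prom1 (2.71 and 12.2 FPKM). The part of airway and lung tissue in the ratios of the secretory genes was not tested.

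Markers of basal cells went in both directions, while no measured marker of the thymus was at least 2-fold higher. Basal cell genes were higher in 4 of 16 cases and lower in 3, with a median of 0.23. Krt15 had 10.2 and 44.3 FPKM and Aqp3 had 2.81 and 11.0 FPKM. The 3 lower genes were Krt17 (27.0 and 0.799 FPKM), Dsc3 (2.15 and 0.152 FPKM) and Sfn (4.77 and 1.49 FPKM). Krt5 had 14.1 and 6.95 FPKM and Trp63 had 4.78 and 2.49 FPKM, short of the 2-fold rule. Sfn, Krt5 and Trp63 were named after their values were seen. Thymic epithelium genes were higher in 0 of 14 cases and lower in 8, among them Prss16 at 198 and 0.381 FPKM. They summed to 1262 and 319.6 FPKM, of which Ctsl, named after its values were seen, made up 676 and 273 FPKM. All 20 thymocyte and T cell genes were lower, with Rag1 at 436 and 0.832 FPKM. The part of the thymus genes in the values of the secretory genes was not tested.

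**Figure D4:**
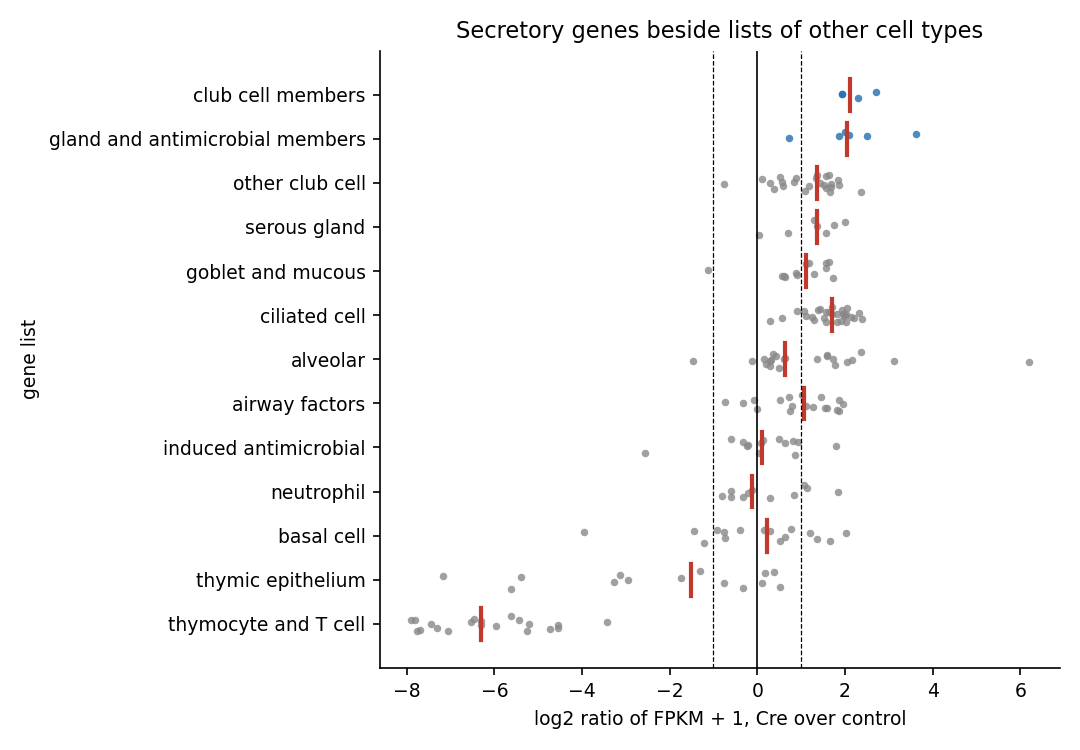
Log2 ratio of FPKM + 1, Cre over control, with 1 point per measured gene of each list (secretory genes in blue, other lists in grey) and red bars at list medians; the dashed lines are 2-fold. The medians are 2.11 and 2.05 for the club cell and gland genes, 1.70 for ciliated cells, -0.12 for neutrophils and -6.30 for thymocytes and T cells; the lists share some genes.

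The genes most like each secretory gene were sought by distance over its log2(FPKM + 1) values in the 2 libraries, among named genes whose mean reached 5 FPKM. The nearest gene to Ltf was Sec14l3, at a distance of 0.12. Reg3g lay nearest to Aldh1a1 (114 and 353 FPKM), a retinal-oxidising enzyme, at 0.19. Wfdc2 was nearest to Bpifb1, at 0.39, and to Bpifa1, at 1.25, and Cbr2 was nearest to Scgb3a2, at 0.48. Cyp2f2 lay nearest to Cs (243 and 476 FPKM), a mitochondrial enzyme, at 0.70. The nearest genes to Scgb1a1 and Scgb3a1 were the muscle genes Myl7 at 1.16 and Tnnc1 at 1.41, so that these 2 and Bpifa1 had the most distant neighbours. Lcn2 lay nearest to Lrtm1 (2.65 and 7.38 FPKM) at 0.67. The mean of Lcn2 is itself below 5 FPKM, so genes at its own level were not among the candidates. With 2 values per gene this likeness describes level and ratio only.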

How the data were processed

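Poly-A RNA of 2 libraries was analysed, 1 per genotype. The submitters' processing notes name TopHat, Bowtie, Cufflinks and the mm9 build, without versions or settings. The column layout is that of Cufflinks output, per the file headers, and the deposited values per library were taken as FPKM. Each row also holds the p-value, q-value, test score and log2 fold change that the authors deposited, and this log2 fold change equals that of the values within 1.38e-05. Rows marked as not completed (2) and small-RNA genes (32) were left out, as were genes with a mean below 1 FPKM, which leaves 13408. None of the 10 secretory genes was lost, and none has a locus that overlaps another row. FPKM divides up a library, so abundant transcripts of one tissue lower all other values. The most frequent Cre to control ratio was 0.824, in 32 genes, from which no read count follows. No test was run. The members and lists were chosen with earlier results of these data known. Genes named are the 10 members, their relatives, up to 4 genes per list with the largest absolute ratio, the nearest genes by level, and others said to be named after their values were seen. One result under this rule is not reported here. Alternatives were pseudocounts of 0.1 and 5, other scalings, other minimums and another place for Scgb3a1. Scripts ran in Python 3.11.15 with pandas 2.3.3, and the counting step was tested on simulated data.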

Additional observations from a re-analysis of the deposited data

How the results depend on the processing

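All alternatives gave 9 secretory genes at least 2-fold higher and 0 lower, although a minimum mean of 5 FPKM left Lcn2 out. Each gene stayed on its side of the 2-fold rule in all 69 recalculated ratios, and Lcn2 ran from 0.37 to 0.93. The difference between the club cell and gland medians, 0.06, became 0.0023 with a pseudocount of 0.1, 0.17 with a pseudocount of 5, 0.0741 with the same upper quartile, 0.0311 in TPM, 0.0134 with a minimum of 5 FPKM and -0.16 with Scgb3a1 among the gland genes. Over all genes, 815 were higher and 1397 lower, so that 36.8% of the differences were towards the Cre library. With a pseudocount of 0.1 there were 1262 higher, with one of 5 there were 238 higher against 805 lower (22.8% higher), the same upper quartile gave 1345 higher and 1080 lower (55.5%), and a minimum of 5 FPKM gave 449 higher. The cause was not tested. No paired analysis was possible because each genotype has 1 library. Without replicates and with an unknown depth, no interval can be given for any level or ratio.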
